A study of Mus musculus with 6 samples.

Results

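The genes described here encode positive transcription elongation factor b (P-TEFb), its inhibitor Hexim1 and partners that act with it on RNA polymerase II. They are Ccnt1, Ccnt2, Cdk9, Hexim1, Ell, Ell2, Aff4, Supt5 and Supt6. The 9 genes were chosen by their membership of this machinery, with earlier results from all 6 arrays already known. All 9 of them were among the 7746 genes past a filter on dim signals, out of 12394 genes named on the array, so the filter removed none. They carried 13 probe sets (groups of short probes to 1 transcript region): 6 genes had 1, Hexim1 and Aff4 had 2 each, and Ccnt2 had 3. The brightest probe set of a gene is described first.

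P-TEFb is a kinase made of CDK9 and a cyclin T subunit. RNA polymerase II often stops shortly after it starts a gene, held by the factors DSIF and NELF, and P-TEFb releases it by phosphorylating those factors and the polymerase tail. Much of the cell's P-TEFb is kept inactive in a particle with 7SK RNA and HEXIM proteins, while the super elongation complex, built on AFF scaffolds with ELL factors, brings active P-TEFb to genes that must be transcribed quickly. Rapidly induced genes, among them stress and hypoxia genes, are a textbook setting for this release step.

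The cells were B16, a mouse melanoma line, and each group was 1 array. The 6 groups were cyclic hypoxia, chronic hypoxia and normoxia, each collected 1 h after the exposure (cyclic hypoxia plus 1 h, chronic hypoxia plus 1 h, normoxia plus 1 h) or at its end. All cells were placed in medium without serum 2 h before the exposure. Cyclic hypoxia was 3 periods of 1 h with 30 min of reoxygenation between them, chronic hypoxia was 3 h without a break, oxygen was below 1% in both, and normoxia lasted 3 h. In the hypoxic regimes the extra hour was spent in reoxygenation. The cyclic regime took longer than its normoxia control as labelled, so the effect of the cycles and that of a longer time without serum cannot be told apart. Nothing in the labels speaks of separate cultures or of further clones of the line.

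Signals (intensity units) are the authors' linear values, scaled by them to the same trimmed mean of about 100 on every array. No group has a replicate, so no value below has an error of its own and no p-value is given. The only pair of arrays alike in oxygen, normoxia plus 1 h and normoxia, serves as a scale: their log2 differences had an SD of 0.21 over 3573 genes with a mean signal of 100 units or more and of 0.49 over 4173 dimmer genes. That pair also differs by an hour. Array medians lay between 15.9 and 19.3 units. The array after cyclic hypoxia plus 1 h had the lowest mean correlation with the others over genes, 0.940 against 0.962 to 0.967, and genes in it differed most widely from normoxia. All 6 measured melanocyte lineage markers had mean signals of 1126 units or more. Mitf, the lineage's transcription factor, had 635 units after cyclic hypoxia plus 1 h and 2568 in normoxia plus 1 h, and 1256 units after cyclic hypoxia and 2366 in normoxia at the end, log2 differences of -2.02 and -0.91. The other 5 differed between cyclic hypoxia and normoxia by -0.25 to 0.41. The summed signal of 3 immune markers was 3.52 to 7.46 units on every array, that of 3 fibroblast markers 10.5 to 19.1 units that of 3 endothelial markers 2.43 to 12.5 units and that of 2 keratinocyte markers 8.48 to 19.7 units. Hk2, a glycolysis gene used as a check on the labels, was higher than in its normoxia array by 1.30 (cyclic hypoxia plus 1 h) to 2.95 (chronic hypoxia) on the log2 scale. The mitophagy gene Bnip3 was higher by 1.38 (cyclic hypoxia) to 2.66 (chronic hypoxia), and the glucose transporter gene Slc2a1 by 0.78 (cyclic hypoxia plus 1 h) to 2.38 (chronic hypoxia).

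The promoter regions of 4 genes are shown because the results turn on them, the cyclins Ccnt1 and Ccnt2, the inhibitor Hexim1 and the elongation factor Ell. Each is the 250 bases before the annotated start, 5′ to 3′ on the gene's strand, from RefSeq in build GRCm38.p6: chr15:98567737-98567986 (minus strand), chr1:127773914-127774163 (plus), chr11:103116075-103116324 (plus) and chr8:70539425-70539674 (plus). Capitals mark ACGTG and GCGTG, the core letters of the hypoxia response element bound by HIF, on either strand.
Ccnt1: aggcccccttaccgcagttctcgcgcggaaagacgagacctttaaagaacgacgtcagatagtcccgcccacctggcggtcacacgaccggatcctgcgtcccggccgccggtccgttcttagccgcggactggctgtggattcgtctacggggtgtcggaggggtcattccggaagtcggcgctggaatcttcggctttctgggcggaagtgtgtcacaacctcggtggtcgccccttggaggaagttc
Ccnt2: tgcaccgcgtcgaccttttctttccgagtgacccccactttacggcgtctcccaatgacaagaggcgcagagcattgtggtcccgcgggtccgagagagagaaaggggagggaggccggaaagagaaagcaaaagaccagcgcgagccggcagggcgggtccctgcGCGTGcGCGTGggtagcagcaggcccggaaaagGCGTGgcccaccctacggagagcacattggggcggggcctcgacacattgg
Hexim1: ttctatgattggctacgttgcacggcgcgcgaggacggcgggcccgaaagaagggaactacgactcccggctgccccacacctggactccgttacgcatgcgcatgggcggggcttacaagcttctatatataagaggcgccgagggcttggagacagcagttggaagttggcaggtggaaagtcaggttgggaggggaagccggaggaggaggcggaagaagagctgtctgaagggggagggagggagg
Ell: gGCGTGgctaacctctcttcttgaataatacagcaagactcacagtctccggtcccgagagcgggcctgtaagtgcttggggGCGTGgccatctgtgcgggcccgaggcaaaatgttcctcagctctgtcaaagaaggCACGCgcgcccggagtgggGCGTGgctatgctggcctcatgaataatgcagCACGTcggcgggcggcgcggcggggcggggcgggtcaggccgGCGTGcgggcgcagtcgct

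These letters occurred 6 times before Ell and 3 times before Ccnt2, and neither string was found in the windows of Ccnt1 and Hexim1. Among all 9 genes, each with 1 annotated start in the table, 4 windows held at least 1 match (Ccnt2, Ell, Aff4 and Supt6), where a palindrome such as CACGTG counts on each strand. Of 32851 promoter windows of the same length, 38.6% held ACGTG or GCGTG. The windows of the 9 genes were 56.8% to 79.2% G or C, and the median of all windows was 52.4%. A match of 5 letters is a description of the sequence and not a site.

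At their brightest probe sets, both cyclin T genes were lowest after cyclic hypoxia. Ccnt1 encodes the main cyclin partner of CDK9 and Ccnt2 the alternative partner. The signal of Ccnt2 (probe set 1427089_at) was 10.6 units after cyclic hypoxia plus 1 h, 42.6 after chronic hypoxia plus 1 h and 35.5 in normoxia plus 1 h. At the end of exposure it was 14.7 units after cyclic hypoxia, 62.4 after chronic hypoxia and 43.9 in normoxia. Both cyclic arrays thus lay below all 4 others, with no overlap. In log2 differences Ccnt2 stood at -1.75 (plus 1 h) and -1.57 (end) in cyclic hypoxia against normoxia, at 0.26 and 0.51 in chronic hypoxia against normoxia, and at -2.01 and -2.08 in cyclic against chronic hypoxia.

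Ccnt1 had the same order of regimes at a smaller size. At probe set 1419313_at it read 22.2 units after cyclic hypoxia plus 1 h, 58.7 after chronic hypoxia plus 1 h and 39.2 in normoxia plus 1 h. At the end of exposure the signals were 20.6, 48.8 and 38.9 units after cyclic hypoxia, after chronic hypoxia and in normoxia. The 2 normoxia arrays differed by 0.01 on the log2 scale, both chronic arrays lay above them and both cyclic arrays below. Cyclic hypoxia differed from normoxia by -0.82 (plus 1 h) and -0.92 (end), chronic hypoxia from normoxia by 0.58 and 0.32, and cyclic from chronic hypoxia by -1.41 and -1.24.

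**Figure D1:**
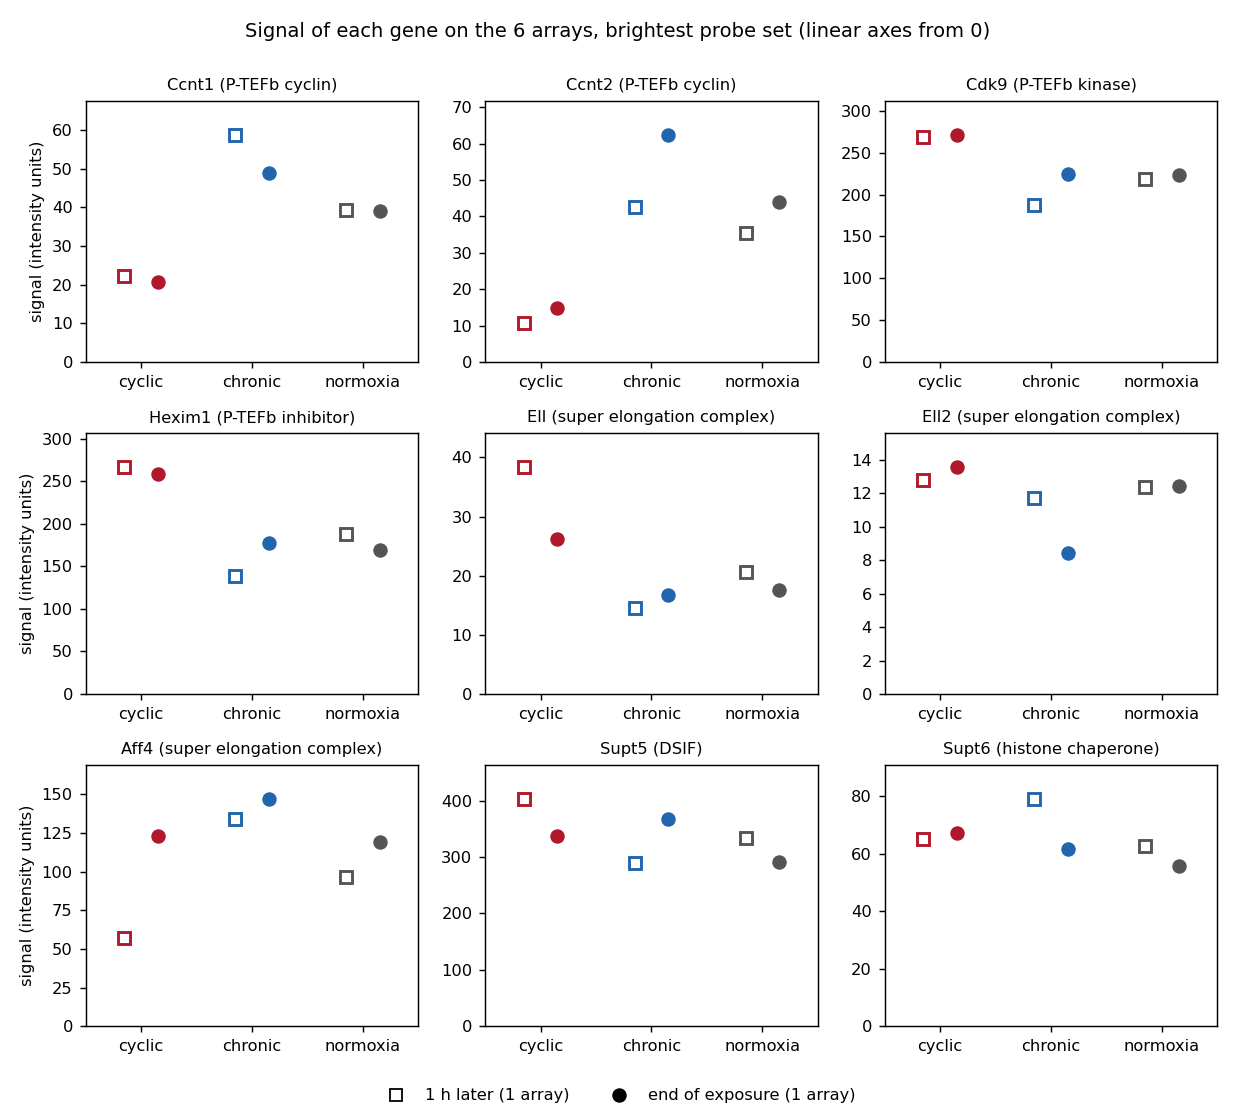
Signal in intensity units (linear axes from 0) of the 9 genes at their brightest probe set, with 1 point per array, grouped by regime. Open squares are arrays collected 1 h after the exposure and filled circles those collected at its end. Ccnt1 and Ccnt2 have both cyclic points below all others, and Cdk9, Hexim1, Ell and, by a small margin, Ell2 have both above.

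Ccnt1 and Ccnt2 were the 2 members that were 2-fold or more lower in cyclic than in chronic hypoxia at both collections, comparisons that share no array. Of all genes past the filter, 1.3% met that rule, and 1.94% of those with a mean signal under 100 units, where both cyclins lie. The cyclins were among the genes known to differ when the 9 were chosen, so these counts describe them and support nothing further. Only Ccnt2 was 2-fold or more from normoxia in a cyclic array. It was so at both collections, where 10.6% (plus 1 h) and 5.44% (end) of all genes were 2-fold or more lower.

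The probe sets of Ccnt2 did not all follow the brightest. The second, with a mean of 18.6 units against 34.9, differed between cyclic and chronic hypoxia by -1.01 (plus 1 h) and -0.84 (end), and between cyclic hypoxia and normoxia by -0.50 and -0.69. Its cyclic arrays read 10.1 (plus 1 h) and 15.1 units (end), and normoxia plus 1 h, at 14.3 units, lay between them. The third averaged 7.68 units, below the filter at 8.33, and gave -1.13 and 0.38 for cyclic against chronic hypoxia. Against normoxia it was higher in cyclic hypoxia, by 0.87 (plus 1 h) and 0.46 (end), opposite to the 2 brighter probe sets. The direction of the cyclic against chronic difference at the end of exposure therefore held at the 2 brighter probe sets and not at the dimmest. With the median over its 3 probe sets, Ccnt2 differed between cyclic and chronic hypoxia by -1.13 and -0.84, and its cyclic arrays were no longer below all others.

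**Figure D2:**
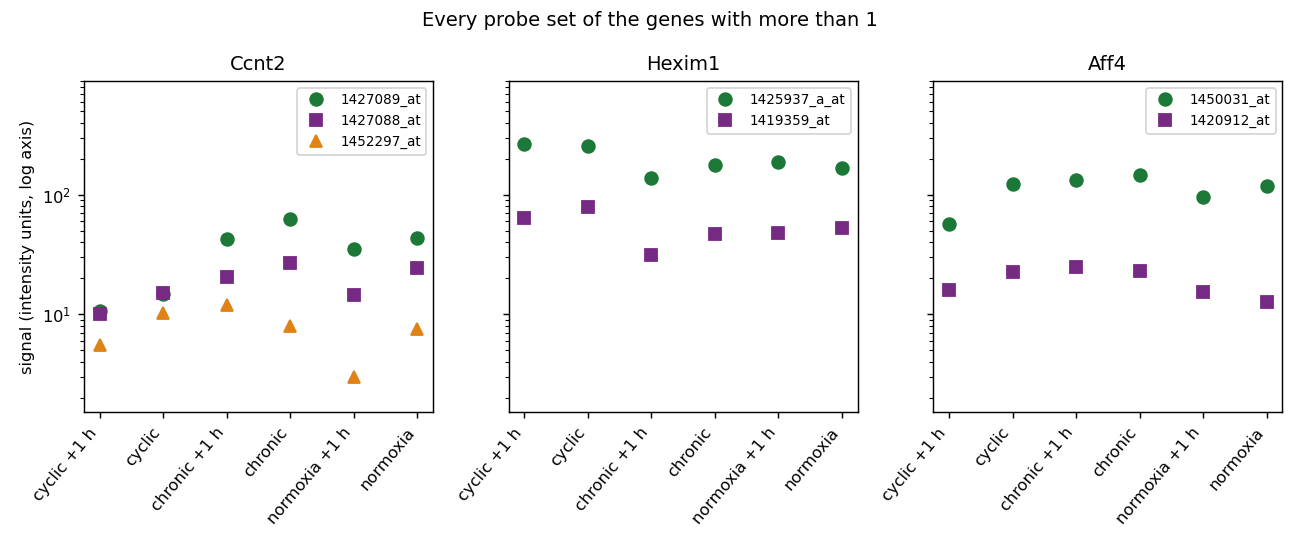
Signal (intensity units, log axis) of every probe set of Ccnt2, Hexim1 and Aff4 on each of the 6 arrays, 1 point per array. The brightest probe set of Ccnt2 is lowest in both cyclic arrays, the second has cyclic arrays at 10.1 and 15.1 units with normoxia plus 1 h (14.3 units) between them, the third has no such order, and both probe sets of Hexim1 are highest in the cyclic arrays.

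Cdk9, the catalytic subunit, did not share the direction of its cyclins. Its signal (1417269_at) was 269 units after cyclic hypoxia plus 1 h, 187 after chronic hypoxia plus 1 h and 219 in normoxia plus 1 h. At the end of exposure it was 271 units after cyclic hypoxia, 224 after chronic hypoxia and 223 in normoxia. The cyclic arrays were the 2 highest, by 0.29 (plus 1 h) and 0.28 (end) over normoxia on the log2 scale. Those differences are little larger than the SD of 0.21 between the normoxia arrays for genes this bright, and 24.9% and 22.8% of all genes were at least as far above normoxia.

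Hexim1, the protein that binds 7SK RNA and holds P-TEFb inactive, was highest after cyclic hypoxia. The signals at 1425937_a_at were 267 units after cyclic hypoxia plus 1 h, 139 after chronic hypoxia plus 1 h and 188 in normoxia plus 1 h. At the end they were 258, 178 and 169 units after cyclic hypoxia, after chronic hypoxia and in normoxia. Both cyclic arrays stood above all 4 others without overlap. The log2 differences were 0.50 (plus 1 h) and 0.61 (end) for cyclic hypoxia against normoxia, -0.44 and 0.08 for chronic hypoxia against normoxia, and 0.94 and 0.54 for cyclic against chronic hypoxia.

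The second, dimmer probe set of Hexim1 was also highest in both cyclic arrays, although at the end of exposure chronic hypoxia lay below normoxia there and above it at the brighter one. At 1419359_at it read 63.9 units after cyclic hypoxia plus 1 h, 31.1 after chronic hypoxia plus 1 h and 47.9 in normoxia plus 1 h, and 78.6, 46.7 and 53.1 units in the same regimes at the end of exposure. Cyclic hypoxia was higher than normoxia there by 0.42 and 0.57, and higher than chronic hypoxia by 1.04 and 0.75. Among genes with a mean signal of 100 units or more, 0.64% (plus 1 h) and 2.99% (end) were at least as far above chronic hypoxia as Hexim1 was at its bright probe set. Among all genes the shares were 3.07% and 6.47%. Against normoxia, 12.9% (plus 1 h) and 7.69% (end) of all genes were at least as far above.

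**Figure D3:**
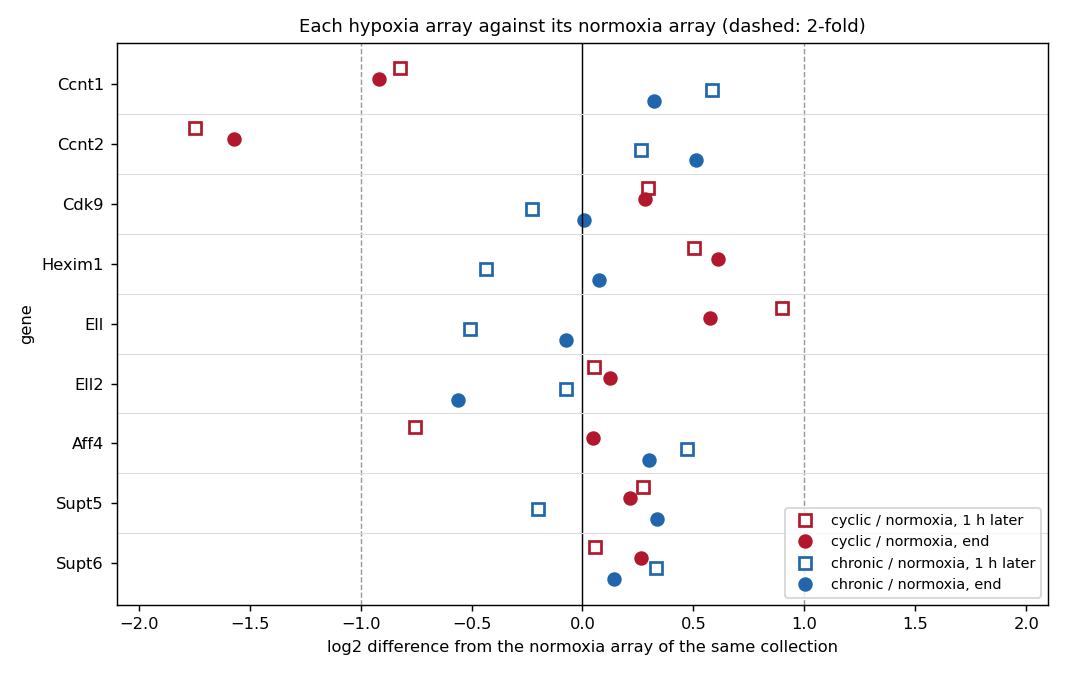
Log2 difference of each hypoxia array from the normoxia array of its own collection, for the 9 genes at their brightest probe set (1 array on each side of every difference; dashed lines mark 2-fold). Ccnt2 in the cyclic arrays (-1.75 and -1.57) is the only gene past a dashed line, and both values of Ccnt1 in cyclic hypoxia lie to the left of 0 and both in chronic hypoxia to the right.

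The super elongation complex genes differed in direction from each other. Ell, an elongation factor that suppresses pausing of the polymerase, was dim and highest after cyclic hypoxia. Its signal (1460643_at) was 38.4 units after cyclic hypoxia plus 1 h, 14.5 after chronic hypoxia plus 1 h and 20.6 in normoxia plus 1 h. At the end of exposure it was 26.2 units after cyclic hypoxia, 16.8 after chronic hypoxia and 17.6 in normoxia. The cyclic arrays lay above the other 4, which ran from 14.5 to 20.6 units. Ell was higher in cyclic hypoxia than in normoxia by 0.90 (plus 1 h) and 0.57 (end), and higher than in chronic hypoxia by 1.41 and 0.65. After quantile normalization or median centring, its later difference from normoxia also passed 2-fold. At the later collection 0.92% of all genes were at least as far above chronic hypoxia, and 1.63% of genes under 100 units. At the end the shares were 4.21% and 6.71%. Against normoxia, 4.49% (plus 1 h) and 8.91% (end) of all genes were at least as far above.

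Ell2, a paralog of Ell, was the dimmest member. It had (1450744_at) 12.8 units after cyclic hypoxia plus 1 h, 11.7 after chronic hypoxia plus 1 h and 12.4 in normoxia plus 1 h. At the end it had 13.6 units after cyclic hypoxia, 8.44 after chronic hypoxia and 12.4 in normoxia. The array after chronic hypoxia was apart from the rest, at -0.56 on the log2 scale against normoxia, and the other 5 lay between 11.7 and 13.6 units. A difference of -0.56 compares with an SD of 0.49 between the normoxia arrays at genes under 100 units.

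Aff4, the scaffold that joins P-TEFb to the ELL factors, was low on a single array at its brightest probe set only. Its signal (1450031_at) was 57.3 units after cyclic hypoxia plus 1 h, 134 after chronic hypoxia plus 1 h and 96.7 in normoxia plus 1 h. At the end of exposure it was 123 units after cyclic hypoxia, 147 after chronic hypoxia and 119 in normoxia. Cyclic hypoxia differed from chronic hypoxia by -1.22 at the later collection and by -0.25 at the end. The array after cyclic hypoxia plus 1 h is the one that stood furthest from the others, and its part in the value of Aff4 was not tested. The second probe set of Aff4, at a mean of 19.0 units, gave -0.65 and -0.03 for the same comparisons. Against normoxia that probe set gave 0.04 (plus 1 h) and 0.83 (end) in cyclic hypoxia. Its lowest array was normoxia, at 12.6 units. In cyclic hypoxia, Aff4 differed by -1.10 between the later collection and the end, the largest such step among the 9 genes, where 10.4% of all genes differed 2-fold or more in either direction. That step was under 2-fold after quantile normalization, median centring or with the median over both probe sets. Both chronic arrays were above the other 4, by 0.47 (plus 1 h) and 0.30 (end) over normoxia.

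Supt5 and Supt6 varied least, along with Cdk9. Supt5, the large subunit of DSIF and a substrate of P-TEFb (1424255_at), had 403 units after cyclic hypoxia plus 1 h, 290.2 after chronic hypoxia plus 1 h and 333 in normoxia plus 1 h. At the end it had 337, 367 and 291 units after cyclic hypoxia, after chronic hypoxia and in normoxia. The regimes overlapped, and the 6 signals spanned 0.47 on the log2 scale. Supt6, a histone chaperone that travels with the polymerase (1417628_at), had 65.1 units after cyclic hypoxia plus 1 h, 78.9 after chronic hypoxia plus 1 h and 62.6 in normoxia plus 1 h, and 67.1, 61.7 and 55.8 units in those regimes at the end. It spanned 0.50, again with overlap. Cdk9 spanned 0.54, against 2.56 for Ccnt2, 1.51 for Ccnt1, 1.41 for Ell, 1.36 for Aff4, 0.94 for Hexim1 and 0.69 for Ell2.

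The counts of members past 2-fold stand here beside the shares of all genes. For cyclic hypoxia plus 1 h over normoxia plus 1 h 1 of 9 was past 2-fold (Ccnt2), with 14.2% of all genes past it in either direction, and for cyclic hypoxia over normoxia at the end 1 of 9 (Ccnt2 again), with 7.55%. Chronic hypoxia gave 0 of 9 at both collections, with 4.11% (plus 1 h) and 4.89% (end) of all genes. In cyclic against chronic hypoxia, 4 of 9 passed at the later collection (Ell higher, and Ccnt1, Ccnt2 and Aff4 lower), with 15.1% of all genes (2.5% higher and 12.6% lower). Aff4 was under 2-fold there after median centring or with the median over its probe sets, and Hexim1 was past it after quantile normalization or median centring. At the end 2 of 9 passed (Ccnt1 and Ccnt2, both lower), with 4.98%. The 9 genes had a median size of log2 difference of 0.94 (plus 1 h) and 0.54 (end) in cyclic against chronic hypoxia, where all genes had 0.38 and 0.25. For cyclic hypoxia against normoxia they had 0.50 and 0.28, and all genes 0.34 and 0.30. For chronic hypoxia against normoxia they had 0.33 and 0.30, and all genes 0.23 and 0.25. Over the extra hour they had 0.10 in the cyclic regime, 0.34 in the chronic and 0.17 in normoxia. All genes had 0.33, 0.21 and 0.18 there. The split of all genes by direction depended on the scaling. Cyclic against chronic hypoxia plus 1 h had 194 genes 2-fold higher and 975 lower as deposited, 352 and 804 after quantile normalization, and 476 and 640 after centring arrays on their medians. That centring gave 394 higher and 663 lower in place of 276 and 821 for cyclic hypoxia plus 1 h over its normoxia array, 236 and 313 in place of 164 and 421 at the end, and 175 and 127 in place of 231 and 87 for chronic hypoxia plus 1 h. Nothing is read from the members' counts or median sizes, because the same arrays were in view when the genes were chosen.

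Read by regime, both cyclic arrays lay above the 4 others at Cdk9, Hexim1, Ell and Ell2, and below them at Ccnt1 and Ccnt2. The margin at Ell2 was small, with 12.8 units after cyclic hypoxia plus 1 h and 12.4 in normoxia. Of all genes past the filter, 13.4% had both cyclic arrays above and 16.3% had both below. Both chronic arrays were above the rest at Ccnt1 and Aff4 (9.53% of all genes) and below at Ell and Ell2 (7.72%). The normoxia arrays were outermost at 0 members in either direction, with 9.72% of all genes above and 9.11% below. Against chronic hypoxia, Cdk9, Hexim1, Ell and Ell2 were higher in cyclic hypoxia at both collections, and Ccnt1, Ccnt2 and Aff4 were lower at both. Supt5 and, except under median centring, Supt6 differed in sign between collections. The share of all genes with the same sign at both collections is not given here, so nothing is read from these signs. Arrays were made from 5 µg of total RNA and scaled to a common mean, so a signal is relative to the rest of the transcriptome, and fewer cells with a transcript cannot be told apart from less of it per cell.

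**Figure D4:**
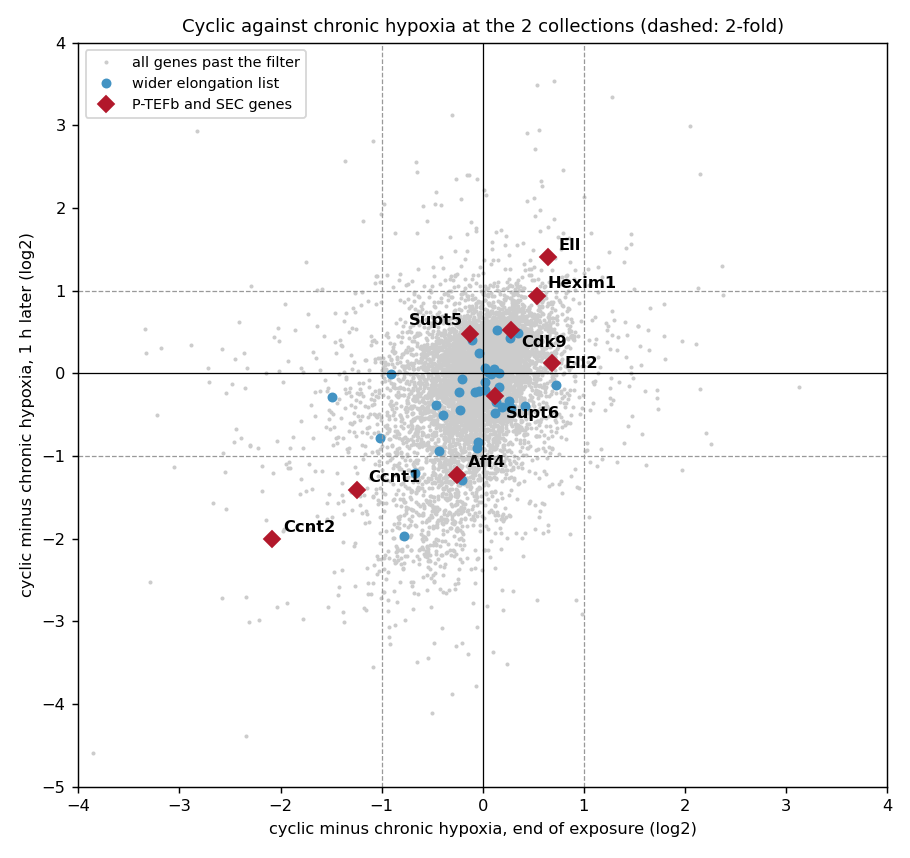
Log2 difference of cyclic minus chronic hypoxia at the end of exposure (horizontal axis) and 1 h later (vertical axis), with 1 point per gene and dashed lines at 2-fold. Diamonds are the 9 genes, circles 36 other elongation genes and small dots the 7746 genes past the filter; Ccnt1 and Ccnt2 are the only diamonds past 2-fold on both axes (lower left), and Ell and Hexim1 are the highest diamonds on the vertical axis.

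Differences over the extra hour were mostly small. At the brightest probe sets the differences of the 9 genes within normoxia (plus 1 h over end) ran from -0.31 (Ccnt2) to 0.22 (Ell). There 0 of 9 was past 2-fold, with 2.74% of all genes. Over the last hour of the chronic regime the differences ran from -0.55 (Ccnt2) to 0.48 (Ell2), again with 0 of 9 past 2-fold and 3.67% of all genes. After cyclic hypoxia the steps were -1.10 for Aff4, -0.48 for Ccnt2 and 0.55 for Ell, and the other 6 lay between -0.09 (Ell2) and 0.26 (Supt5). Both cyclin genes thus read low in the cyclic arrays before and after the last reoxygenation.

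A wider list of 49 genes covered other regulators of P-TEFb, the remaining super elongation complex, DSIF and NELF, the PAF complex, FACT, TFIIS and elongin, the transcription kinases and RNA polymerase II. Of these, 38 were matched to a probe set, 36 passed the filter, 2 (Eaf2 and Cdk12) were too dim, and 11 were not analysed here. The median log2 difference of the 36 in cyclic against chronic hypoxia was -0.23 at the later collection and -0.01 at the end, where all genes had medians of 0.00 and -0.04. At the later collection 27 of 36 were below 0, as were 3885 of all 7746 genes. Of the 36, 3 were 2-fold or more lower, with 12.6% of all genes. After centring arrays on their medians, which moved the median of all genes by 0.28, 17 of 36 were below 0 and the list's median was 0.05, against 0.28 for all genes. At the end 18 of 36 were below 0, as were 4188 of all 7746 genes. Of the 36, 2 were 2-fold or more lower, with 3.76% of all genes. With median centring 13 of the 36 were below 0 there and the list's median was 0.07, against 0.04 for all genes. Against normoxia, cyclic hypoxia gave 3 of 36 lower and 0 higher at each collection. Of all genes, 10.6% (plus 1 h) and 5.44% (end) were 2-fold or more lower. Chronic hypoxia gave 1 higher (2.98% of all genes plus 1 h and 2.53% at the end) and 0 lower. These counts use the brightest probe set of each gene. At the end Srsf2, a listed P-TEFb regulator, was higher in cyclic hypoxia than in normoxia by 0.83 at that probe set. Its dimmer probe sets gave 1.41, 1.58 and 1.01 there, and 0.34, 0.76 and 1.19 plus 1 h, where the brightest gave 0.05.

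Of the partners in the 7SK particle, Larp7, which stabilises 7SK RNA, had 118 units after cyclic hypoxia plus 1 h, 168 after chronic hypoxia plus 1 h and 171 in normoxia plus 1 h. At the end of exposure Larp7 had 150.0, 197 and 170.0 units after cyclic hypoxia, after chronic hypoxia and in normoxia. Mepce, the enzyme that caps 7SK RNA, had 155, 111 and 114 units at the later collection and 152, 119 and 98.9 units at the end, in the same order of regimes. At these brightest probe sets the cyclic arrays were therefore the 2 lowest for Larp7 and the 2 highest for Mepce. Their differences from normoxia were -0.53 (plus 1 h) and -0.18 (end) for Larp7 and 0.44 and 0.62 for Mepce, none of them 2-fold. At a second probe set of Mepce, with a mean of 37.8 units, the differences were 0.14 and 0.03 and at its dimmest 0.68 and 0.98. The second probe set of Larp7 gave -0.42 and -0.36. Against chronic hypoxia, the second probe set of Mepce gave -0.48 (plus 1 h) and 0.02 (end), and its dimmest 0.40 and 0.66.

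At brightest probe sets, 6 genes of the wider list were 2-fold or more apart in a comparison with normoxia or between the hypoxic regimes. So were 26.5% of all genes past the filter. Jmjd6, an oxygen-dependent dioxygenase, had 140.2 units after cyclic hypoxia plus 1 h, 241 after chronic hypoxia plus 1 h and 76.6 in normoxia plus 1 h. At the end it had 167 units after cyclic hypoxia, 338 after chronic hypoxia and 85.5 in normoxia. All 4 hypoxic arrays were above normoxia, by 0.87 and 0.96 in cyclic and by 1.65 and 1.98 in chronic hypoxia. Its second probe set gave 0.84 and 0.72 in cyclic and 1.64 and 1.91 in chronic hypoxia. Ccnc, the cyclin of the Mediator kinase module, had 6.94 units after cyclic hypoxia plus 1 h, 27.2 after chronic hypoxia plus 1 h and 22.2 in normoxia plus 1 h, and 9.46, 16.2 and 32.0 units in those regimes at the end. Like the T cyclins, Ccnc was lowest in the 2 cyclic arrays, at a lower signal, and its second probe set differed between cyclic hypoxia and normoxia by -0.68 (plus 1 h) and -1.31 (end).

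The remaining 4 were 2-fold or more lower in cyclic hypoxia than in normoxia at 1 collection. Supt16, a subunit of the histone chaperone FACT, had 116 units after cyclic hypoxia plus 1 h, 267 after chronic hypoxia plus 1 h and 270.5 in normoxia plus 1 h, but 214 units after cyclic hypoxia at the end, above the 196 of normoxia. Cdc73, a subunit of the PAF complex, differed between cyclic hypoxia and normoxia by -1.04 (plus 1 h) and -0.45 (end) at its brightest probe set. Its 3 other probe sets averaged 11.3, 8.28 and 7.25 units, the last 2 below the filter. They gave 2.19, -1.22 and 0.27 for the later comparison of Cdc73, so its direction there was not shared, and -0.56, -1.29 and -0.79 at the end. Mllt3, a chromatin reader of the super elongation complex, differed by -0.89 and -1.32, and Tcea2, a TFIIS elongation factor, by -0.71 and -1.14. Mllt3 and Tcea2 were dim, with mean signals of 13.3 and 13.8 units.

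Genes whose pattern over the 6 arrays was most like that of a member were sought among 557 genes with a mean signal of 100 units or more and a span of at least 2-fold. The measure was Pearson's r of log2 signals over 6 arrays, which all genes share, and it is given as a description. The 4 members with a span of at least 2-fold were compared. The same 3 genes came first for both cyclins, Zmynd8 (a chromatin reader; r = 0.969 with Ccnt2 and 0.961 with Ccnt1), Itch (a ubiquitin ligase; 0.961 and 0.913) and Pot1a (a telomere protein; 0.956 and 0.934). Zmynd8, brighter than either cyclin, had 113 units after cyclic hypoxia plus 1 h, 251 after chronic hypoxia plus 1 h and 192 in normoxia plus 1 h, and 137, 239 and 210.1 units in those regimes at the end. The genes most like Ell were Tmem222 (0.993), the thioredoxin reductase Txnrd1 (0.948) and Mcrip1 (0.947), and those most like Aff4 were Slc25a36, a mitochondrial carrier (0.988), Nus1 (0.986) and the RNA-binding protein Qk (0.983).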

How the data were processed

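RNA of B16 cells was hybridised to 6 Affymetrix arrays, 1 per group. The deposited values are linear signal intensities for 22690 probe sets, made with GCOS per the submitters' processing notes (version and algorithm not given in the sources used here). The authors' scaling was kept: leaving out 2% of values at each end, every column averaged 100 to 3 significant digits. No detection calls were used, and arrays carry no counts, so precision is limited by the number of arrays. The 20th percentile of all values (2.10 units) served as a floor, and log2 was taken after it. A filter removed 64 control probe sets and those whose mean lay under the 40th percentile of means (8.33 units), and 13556 passed. Genes were named through Entrez identifiers: 20393 probe sets named 1 gene, 691 several and 1606 none, and 20364 matched RefSeq symbols. Skic8 was matched under its older name Wdr61. Each gene was represented by its brightest probe set.

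Differences are between 2 arrays, on the log2 scale, in 9 comparisons. The members, the wider list and the comparisons were chosen with earlier results of these data known, and the reading by regime was added after the values were seen. All members are named, along with wider-list genes 2-fold or more apart in any of 6 comparisons, Larp7 and Mepce, 3 hypoxia genes as a check on the labels, and the 3 genes most like each member that spanned 2-fold. The computation of differences was tested on simulated data with less noise than these arrays and no gene near the floor. That test checks the arithmetic only. Python 3.11.15, pandas 2.3.3 and matplotlib 3.10.9 were used. Alternatives covered the floor, the scaling, the filter and the choice of probe set.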

Additional observations from a re-analysis of the deposited data

Results flagged for a closer look

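At 4 genes both cyclic arrays differed from normoxia in the opposite direction to both chronic arrays, as they did at 9.28% of all genes past the filter. The chronic and cyclic differences share their normoxia arrays, and whether they differ was not tested. Averaged over the 2 collections, cyclic minus chronic hypoxia was -2.05 for Ccnt2 and -1.32 for Ccnt1 on the log2 scale. Ell gave 1.03 and Ell2 gave 0.41. Some of these differences from normoxia were near 0: Ell2 stood at 0.05 (plus 1 h) and 0.13 (end) in cyclic hypoxia and at -0.08 in chronic hypoxia plus 1 h, and Ell at -0.07 in chronic hypoxia at the end.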

How the results depend on the processing

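With 1 array per group, leaving out an array removes a group, and the differences have no error. No paired analysis was possible because the labels number no replicates within a group. Each difference between regimes was taken within its collection, and a fit of regime with collection as a block, which would treat the collections as replicates, was not run. No member difference of 2-fold or more changed sign under 2 other floors, quantile normalization, median centring, the median over probe sets or no filter. Under both other floors, quantile normalization, median centring and no filter, all 81 stayed within 0.39 (the SD between the normoxia arrays) of their value, and with the median over a gene's probe sets 7 did not, those of Ccnt2 and Aff4. With that median, members past 2-fold became 0 in cyclic hypoxia against normoxia at both collections, 1 (Ccnt1) in cyclic against chronic hypoxia at the end and 0 in the last hour of the cyclic regime, and 1 gene (Ccnt1) had both cyclic arrays below the rest. Quantile normalization and median centring each gave 2 members past 2-fold (Ccnt2 and Ell) for cyclic hypoxia plus 1 h over normoxia plus 1 h, and 0 for the last hour of the cyclic regime. Why the scalings differ there was not tested. In the wider list, median centring gave 1 gene for cyclic against chronic hypoxia at the end, and no filter gave 2 for chronic hypoxia plus 1 h. Without the array after cyclic hypoxia plus 1 h, the remaining cyclic array was below all 4 others at Ccnt1 and Ccnt2. It was above them at Cdk9, Hexim1, Ell and Ell2. At all of these genes both cyclic arrays lay outside the 4 others, so that outcome was fixed and is no check. This alternative was added after the data were seen. A rule on 1 array is easier to meet than a rule on 2. The share of all genes that meet it is not given here, so nothing is read from it.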
